A study of Mus musculus with 15 samples.

Results

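The genes described are those of the proteasome: every gene whose symbol begins with Psma, Psmb, Psmc, Psmd, Psme or Psmg followed by a digit. On the array 49 of 19938 genes met that rule, each read by its brightest single-gene probe set, and the rule reads only the symbol. Of these, 47 encode proteasome subunits, activators or assembly chaperones, and 2 (Psmc3ip and Psme3ip1) share only the letters of the symbol. The arrays were Affymetrix expression arrays of whole mouse liver, 1 array per animal, on a linear intensity scale. The 3 null DEHP livers came from PPARα-null mice (129S4/SvJae-Pparatm1Gonz/J) gavaged with DEHP in corn oil at 1150 mg/kg on each of 4 days, and the 4 null oil livers from the same strain given corn oil alone. The 4 wild-type DEHP livers and the 4 wild-type oil livers came from wild-type mice (129S1/SvlmJ) given the same gavages. All animals were males of about 7.5 months, kept as a colony on a 129/Sv background, and DEHP is a phthalate plasticizer. The null allele is carried in every cell of the body, and the 2 genotypes are different 129 substrains, so that genotype and substrain cannot be told apart in any comparison of null with wild type.

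The proteasome is the protease that degrades proteins tagged with ubiquitin. Its core particle is a barrel of alpha rings, which form the gate, and beta rings, of which a few members carry the cutting sites. A regulatory particle caps the barrel. The base of this particle holds a receptor for ubiquitin chains and a ring of ATPases that unfold the substrate, and its lid removes ubiquitin. Interferon induces an alternative set of cutting subunits, the immunoproteasome, and an alternative cap, the activator built from Psme1 and Psme2, which are known for producing peptides for class I antigen presentation. PPARα is a nuclear receptor of hepatocytes that turns on fatty acid breakdown and is activated by metabolites of DEHP.

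Array medians ran from 44.4 to 47.5 intensity units over 35494 probe sets, and arrays of the same group correlated at 0.988 to 0.992. Ppara, the targeted gene, read 554, 617 and 558 in null DEHP livers, against 936, 773, 1197 and 751 in wild-type DEHP livers (-0.64 ± 0.129 (SE), adjusted p = 0.00422), and 508, 606, 549 and 517 in null oil livers, against 798, 932, 943 and 849.5 in wild-type oil livers (-0.69 ± 0.119 (SE), adjusted p = 0.00645). Ppara signal was thus lower in every null liver but not absent, and where its probes lie relative to the deleted part was not tested. Cyp4a14, a fatty acid hydroxylase and textbook PPARα target, read 57.6, 23.9 and 44.6 in null DEHP livers and 107, 31.8, 26.8 and 18.7 in null oil livers, 10730, 11010, 11560 and 10790 in wild-type DEHP livers and 278, 733, 323 and 234 in wild-type oil livers. It was high in all 4 wild-type DEHP livers and in no null liver. Hepatocyte markers were bright in all groups, with a sum over 5 measured of 6 listed markers of 55190 to 60220 in null DEHP livers, 53450 to 59920 in null oil livers, 54750 to 56740 in wild-type DEHP livers and 57270 to 58980 in wild-type oil livers. In bulk liver, fewer cells of a type and less RNA per cell cannot be told apart.

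Of the 5 comparisons made, that of null with wild-type livers under DEHP held the most called proteasome genes. Of the 49 genes, 26 were lower in null DEHP livers than in wild-type DEHP livers and 0 were higher (limma, Benjamini-Hochberg adjusted p below 0.05 over all genes). Over all genes tested 5.61% were lower, 5.09% higher and 10.7% called in either direction. At an unadjusted p under 0.05 (limma) stood 34 of the 49, against 4588 of all 19938 genes. For 31 of the 49 the values of the groups did not overlap, a count that was not made over all genes. The median log2 difference was -0.244 over the 49 genes and 0.024 over all genes. The 14 constitutive core genes were all lower, against 8 of 17 genes of the base and lid, 4 of 7 assembly chaperones, 0 of 3 immunoproteasome genes and 0 of 4 activators. Of the 49 genes, 46 were among the 9969 brighter genes of the array, where calls were more frequent. In a fit of those genes alone, 29 of the 46 were lower and 0 were higher, against 13.6% lower, 14.2% higher and 27.7% in either direction over all 9969. Without animal KO-122, which left 2 null DEHP livers, 11 of the 26 calls remained, those of Psma1 to Psma7, Psmb7, Psmd4, Psmd6 and Psmd14. The calls over all genes fell from 2133 to 1019 in the same fit.

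**Figure D1:**
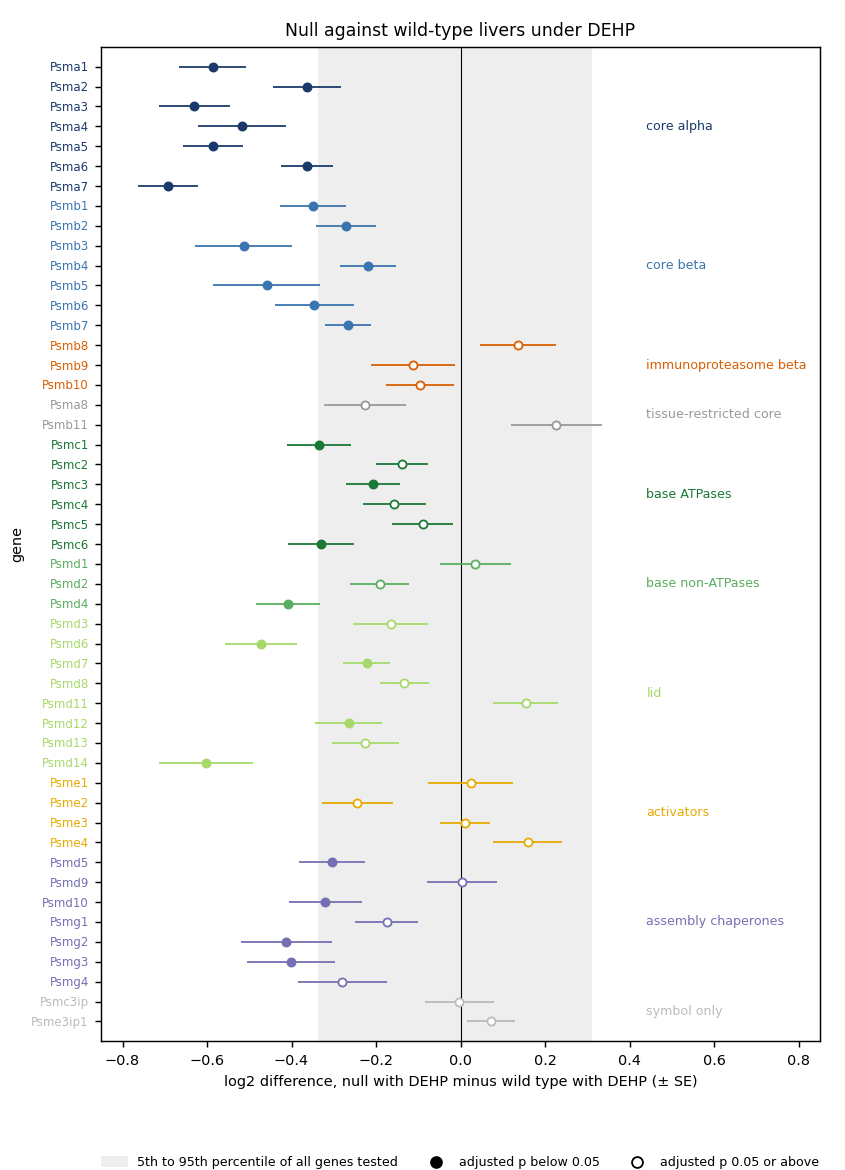
Log2 difference of each proteasome gene, null DEHP livers minus wild-type DEHP livers, with its standard error (3 against 4 animals). Filled points passed the test, open points did not, and the grey band holds the 5th to 95th percentile of all genes tested (-0.334 to 0.309). All 14 core alpha and beta genes are filled and left of 0, and the immunoproteasome and activator genes are open.

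With DEHP, 38 of the 49 genes had a negative log2 difference in null livers and 43 a positive one in wild-type livers, though few passed the test within a genotype (over all 19938 genes these were 9055 negative and 8979 positive). In null livers DEHP lowered 1 gene, Psma3, and raised 0 (0.311% lower, 0.16% higher and 0.471% called either way over all genes). There 16 of the 49 had an unadjusted p under 0.05 (limma), against 2450 of all 19938 genes. The median was -0.108, against 0.014 over all genes. In wild-type livers DEHP raised 8 genes (Psma1, Psma7, Psmb1, Psmb7, Psmd5, Psmd7, Psme1 and Psme2) and lowered 0 (2.29% higher, 1.57% lower and 3.86% either way over all genes), with a median of 0.133 against -0.015. The test of the difference itself, the null response minus the wild-type response, called 5 genes, all lower: Psma1, Psma3, Psma5, Psma7 and Psmb7 (0.562% lower, 0.336% higher and 0.898% either way over all genes). Between null oil livers and wild-type oil livers 1 gene, Psmb8, was called, higher in the nulls (0.642% higher, 0.547% lower and 1.19% either way over all genes), and the median was -0.004. At an unadjusted p under 0.05 (limma) stood 24 of the 49 with DEHP in wild-type livers, against 3341 of all 19938 genes. For the difference of responses these counts were 26 and 2669, and between the oil groups 2 and 2383. These comparisons share arrays with each other and are not independent of one another. In the fit of the 9969 brighter genes alone, 4 genes were lower (2.58% of the 9969) and 1 was higher (1.71%) with DEHP in null livers, 9 were higher in wild-type livers (5.99%) and 8 were lower in the difference of responses (3.3%).

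Single animals carried part of these counts. Without WT-53, whose median over the 49 genes was the lowest of the wild-type oil livers (-0.041 on the centred log2 scale explained with the heat map), 1 gene was called higher with DEHP in wild-type livers, Psmb7, and without WT-55, WT-56 or WT-58 the counts were 4, 5 and 5. In null livers the count was 0 without KO-122, KO-115, KO-117 or KO-118, 4 without KO-121 and 5 without KO-116, the null oil animal with the lowest median (-0.142). For the difference of responses it was 2 without KO-122, KO-115 or WT-53, 3 without KO-117, WT-57, WT-58, WT-59, WT-52, WT-54 or WT-55, and 8 without KO-116. In the comparison of null oil with wild-type oil livers the 1 call was lost without KO-115, KO-117, KO-118, WT-52, WT-53 or WT-54. The calls over all genes moved in such fits too. With DEHP in wild-type livers 770 became 433 without WT-53. In null livers 94 became 9 without KO-122 and 168 without KO-116. For the difference of responses 179 became 65 without KO-122, 61 without WT-53 and 299 without KO-116.

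**Figure D2:**
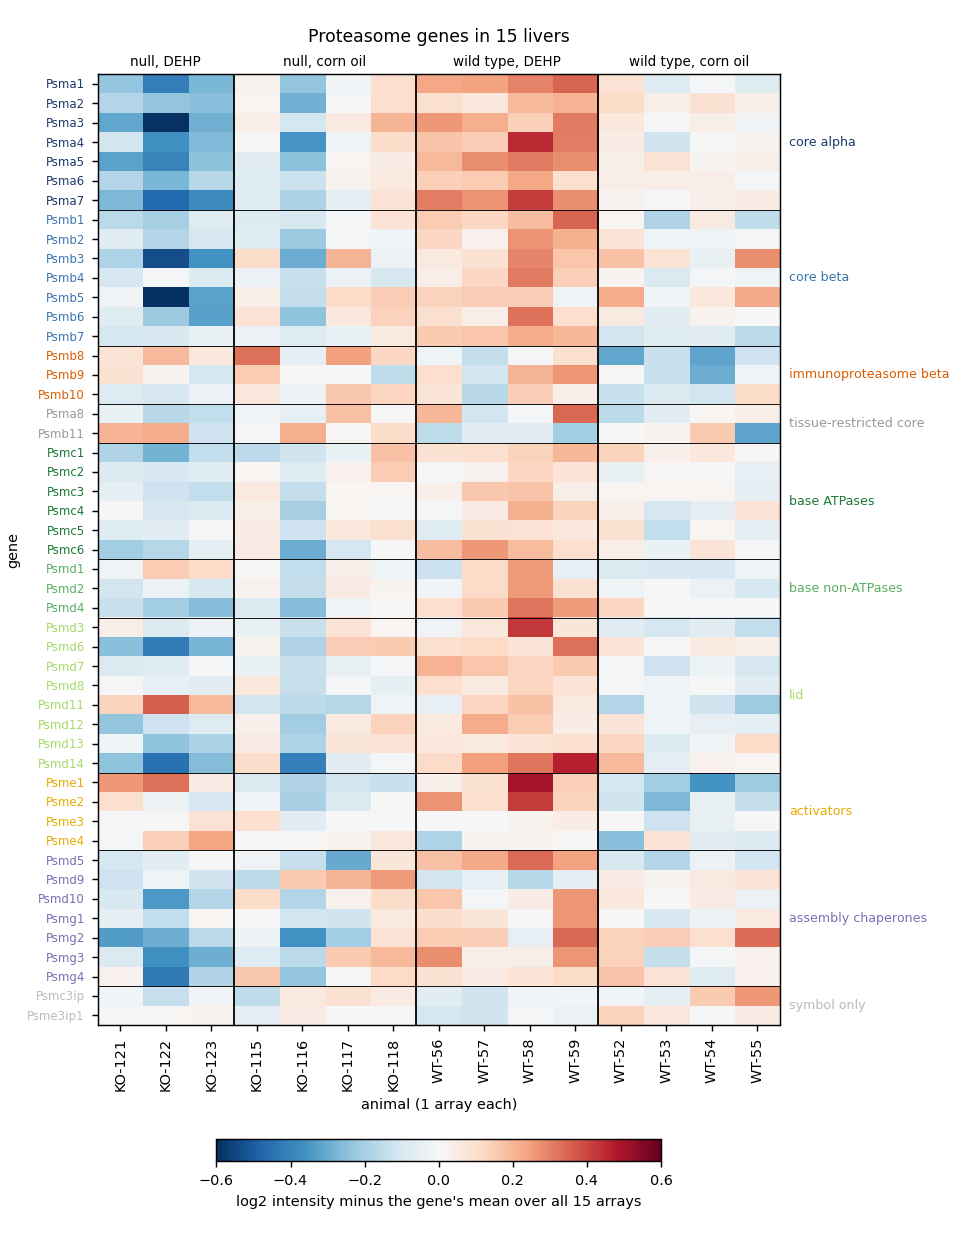
Log2 intensity of each proteasome gene in each of the 15 livers, minus the gene's mean over all arrays (the centred log2 scale), with genes in rows by class and animals in columns by group. Core alpha genes are blue in all 3 null DEHP livers and red in all 4 wild-type DEHP livers, and KO-116 is bluer than the other null oil livers across most classes.

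All 7 genes of the alpha rings were lower in null DEHP than in wild-type DEHP livers, by a median of -0.587 (range -0.693 to -0.363), and for all 7 the values of the groups did not overlap. Psma7 read 681, 596 and 630.1 in null DEHP livers and 783, 720.1, 789 and 870.5 in null oil livers, 1018, 992, 1099 and 997 in wild-type DEHP livers and 834, 815, 838 and 847 in wild-type oil livers. The 3 null DEHP values lay below all 12 others, and the 4 wild-type DEHP values above all others. The difference under DEHP was -0.69 ± 0.071 (SE), adjusted p = 1.61e-05 (0.619-fold), the lowest adjusted p of the 49 genes. With DEHP Psma7 rose in wild-type livers by 0.30 ± 0.065 (adjusted p = 0.0168, lost without WT-58 among others, 2 of 8 fits), while its difference in null livers, -0.31 ± 0.071, did not pass (adjusted p = 0.0631). The null response was lower than the wild-type response by a log2 difference of -0.61 ± 0.096 (SE), adjusted p = 0.00919, a call kept in all 15 fits without 1 animal.

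Psma3 had the one DEHP response called in null livers. It read 1278, 1050 and 1300 in null DEHP livers and 1627, 1473, 1644 and 1826 in null oil livers, 1898, 1840, 1749 and 1967 in wild-type DEHP livers and 1657, 1573, 1626 and 1563 in wild-type oil livers. Null DEHP livers again held the 3 lowest values and did not overlap with null oil livers. The fall with DEHP in null livers was -0.44 ± 0.084 (SE), adjusted p = 0.0351 (0.735-fold), and the difference from wild-type DEHP livers was -0.63 ± 0.084 (SE), adjusted p = 0.000199. The wild-type response was 0.21 ± 0.078 and did not pass (adjusted p = 0.159), and the null response was lower than it by -0.66 ± 0.114 (SE), adjusted p = 0.0161, in all 15 fits without 1 animal. The gene has 3 probe sets of its own symbol, and under DEHP the other two gave -0.619 and -0.649 for null minus wild type, with adjusted p = 0.00034 and 0.000291 over all probe sets.

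Psma1 read 933, 823 and 907 in null DEHP livers and 1111, 929, 1084 and 1175 in null oil livers, 1286, 1296, 1348 and 1398 in wild-type DEHP livers and 1163, 1039, 1088 and 1041 in wild-type oil livers. Null DEHP and wild-type DEHP values were far apart, with both oil groups between them apart from KO-116, whose 929 lay within the null DEHP range. Psma1 was lower in null DEHP livers by -0.59 ± 0.079 (SE), adjusted p = 0.000232, rose with DEHP in wild-type livers by 0.30 ± 0.074 (SE), adjusted p = 0.0322, and differed between the responses by -0.57 ± 0.108 (SE), adjusted p = 0.0213. The last call was lost without KO-122, KO-115 or WT-53, and the rise in wild-type livers in 7 of 8 fits without 1 animal. Psma5 read 581, 549.6 and 612 in null DEHP livers and 692, 611, 732 and 747 in null oil livers, 831, 879, 901 and 879.5 in wild-type DEHP livers and 741, 769, 733 and 743 in wild-type oil livers. The null DEHP values were the lowest apart from KO-123, whose 612 was level with 611 in KO-116. Its difference under DEHP was -0.59 ± 0.071 (SE), adjusted p = 9.13e-05, and that of the responses was -0.48 ± 0.097 (SE), adjusted p = 0.0277, lost in 10 of 15 fits. A second, dimmer Psma5 probe set gave -0.452 under DEHP (adjusted p = 0.00285) and -0.435 for the responses, which did not pass (adjusted p = 0.0808).

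The other alpha ring genes passed only in the comparison of null with wild type under DEHP. Psma4 read 824, 689.7 and 741 in null DEHP livers, against 1004, 986, 1216 and 1101 in wild-type DEHP livers, a difference of -0.52 ± 0.104 (SE), adjusted p = 0.0043. Psma6 read 1768, 1649 and 1774 in null DEHP livers, against 2203, 2218, 2343 and 2137 in wild-type DEHP livers, a difference of -0.36 ± 0.061 (SE), adjusted p = 0.00132. Psma2 read 469.9, 449 and 446 in null DEHP livers, against 566, 556, 607 and 612 in wild-type DEHP livers, -0.36 ± 0.08 (SE), adjusted p = 0.00779. Between the oil groups none of these 3 genes passed the test (log2 differences of -0.052, -0.059 and -0.11).

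Promoter windows are printed for the 4 alpha ring genes that passed the test of the difference of responses, and for Psmb6 and Psme1 as examples of a match to the antioxidant and the interferon element. The windows run from 250 bases before to 50 after the RefSeq start site on build GRCm38.p6, 5′ to 3′ on the gene's strand. Capitals mark matches to a CCAAT box (CCAAT, or ATTGG for the other strand), the core of the antioxidant response element that Nfe2l1 and Nfe2l2 are known to bind (TGAC, any 3 bases, GC) and the interferon-stimulated response element (GAAA, any 2 bases, GAAA, here on the other strand).
Psma1 (chr7:114276067-114276366, minus strand): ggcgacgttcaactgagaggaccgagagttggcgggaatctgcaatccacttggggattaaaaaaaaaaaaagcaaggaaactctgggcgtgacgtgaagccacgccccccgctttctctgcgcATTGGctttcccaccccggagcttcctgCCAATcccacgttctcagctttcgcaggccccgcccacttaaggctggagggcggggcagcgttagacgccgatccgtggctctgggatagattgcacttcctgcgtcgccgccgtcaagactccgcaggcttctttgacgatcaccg
Psma3 (chr12:70974373-70974672, plus strand): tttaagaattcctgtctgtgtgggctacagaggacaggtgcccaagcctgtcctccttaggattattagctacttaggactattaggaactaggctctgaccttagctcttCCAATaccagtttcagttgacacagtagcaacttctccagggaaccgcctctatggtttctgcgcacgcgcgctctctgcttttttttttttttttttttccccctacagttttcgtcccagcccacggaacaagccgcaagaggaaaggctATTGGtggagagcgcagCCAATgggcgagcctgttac
Psma5 (chr3:108256676-108256975, plus strand): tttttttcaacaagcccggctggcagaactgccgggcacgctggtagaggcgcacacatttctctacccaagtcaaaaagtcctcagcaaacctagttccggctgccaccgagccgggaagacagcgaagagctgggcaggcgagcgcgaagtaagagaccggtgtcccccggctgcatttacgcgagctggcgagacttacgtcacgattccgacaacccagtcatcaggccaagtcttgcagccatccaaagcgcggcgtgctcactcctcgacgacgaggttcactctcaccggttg
Psma7 (chr2:180042415-180042714, minus strand): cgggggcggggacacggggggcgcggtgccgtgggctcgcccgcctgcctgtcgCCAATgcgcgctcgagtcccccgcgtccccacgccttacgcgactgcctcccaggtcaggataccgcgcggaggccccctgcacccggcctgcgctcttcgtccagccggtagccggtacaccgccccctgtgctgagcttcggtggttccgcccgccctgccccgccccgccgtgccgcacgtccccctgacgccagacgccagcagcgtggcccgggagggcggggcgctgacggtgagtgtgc
Psmb6 (chr11:70525107-70525406, plus strand): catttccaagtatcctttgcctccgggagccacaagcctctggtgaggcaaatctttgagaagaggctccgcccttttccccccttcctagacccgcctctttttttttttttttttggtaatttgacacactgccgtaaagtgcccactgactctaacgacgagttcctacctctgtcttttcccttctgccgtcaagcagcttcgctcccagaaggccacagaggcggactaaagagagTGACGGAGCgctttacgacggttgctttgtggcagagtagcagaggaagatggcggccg
Psme1 (chr14:55578244-55578543, plus strand): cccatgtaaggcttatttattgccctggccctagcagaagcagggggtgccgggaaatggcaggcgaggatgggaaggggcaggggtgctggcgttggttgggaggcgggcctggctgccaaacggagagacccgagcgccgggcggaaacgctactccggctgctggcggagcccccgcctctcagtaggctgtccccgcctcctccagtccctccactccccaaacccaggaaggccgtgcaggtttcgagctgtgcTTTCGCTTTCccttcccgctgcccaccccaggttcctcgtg
The Psma1 boxes begin 126 and 98 bases before the start site, the Psma7 box 196 bases before it, and the Psma3 boxes 139 bases before it and 14 and 31 bases after it. The Psma5 window holds none of these letters. The Psmb6 match begins 9 bases before the start site and the Psme1 match 10 bases after it.

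RefSeq windows were matched for 41 of the 49 genes. On both strands, a CCAAT box stood in 16 of the 41 (39.0%), against 41.7% of the 15573 other tested genes with a window. By class these were 6 of 11 core alpha and beta genes (54.5%), 4 of 14 base and lid genes (28.6%) and 2 of 7 immunoproteasome and activator genes (28.6%). The antioxidant core stood in 6 of 41 (14.6%), namely Psmb5, Psmb6, Psmc6, Psmd9, Psmd12 and Psme4, against 15.2%. The interferon element stood in 5 of 41 (12.2%: Psmb3, Psmd4, Psmd9, Psme1 and Psmg4), against 3.87%, and the gamma-activated site (TTC, any 3 bases, GAA, which reads the same on both strands) in 3 of 41 (7.32%: Psmb8, Psmd2 and Psmg1), against 8.99%. The direct repeat of AGGTCA with 1 base between, the form PPARα is known to bind, stood in 0 of 41 and in 0.0514% of the other genes. The motifs were searched for exact letters, and a match is a description of the letters only.

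The beta rings were also lower in null DEHP livers than in wild-type DEHP livers, in 7 of 7 genes, by a median of -0.346 (range -0.513 to -0.219). Among them are the 3 constitutive cutting subunits. Psmb7, the trypsin-like one, read 2145, 2165 and 2243 in null DEHP livers and 2252, 2182, 2241 and 2390 in null oil livers, 2575, 2590, 2693 and 2649 in wild-type DEHP livers and 2131, 2193, 2207 and 2061 in wild-type oil livers. The wild-type DEHP livers stood above all 11 others, while the null DEHP values lay among those of the oil groups. Psmb7 rose with DEHP in wild-type livers by 0.29 ± 0.051 (SE), adjusted p = 0.00414 (1.22-fold), the one of the 8 calls in wild-type livers that held without any 1 animal. Its null response was -0.053 ± 0.055 (adjusted p = 0.783), the difference of responses -0.34 ± 0.075 (SE), adjusted p = 0.0432, lost in 14 of 15 fits, and the difference under DEHP -0.27 ± 0.055 (SE), adjusted p = 0.00535.

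Psmb5, the chymotrypsin-like subunit, read 924, 567 and 752 in null DEHP livers and 963, 850.0, 1017 and 1039 in null oil livers, 1032, 1039, 1040 and 923 in wild-type DEHP livers and 1094, 926, 979 and 1099 in wild-type oil livers. Its null DEHP values were spread most widely, with KO-122 lowest of all 15 livers and KO-121 level with WT-59. Under DEHP it was lower in null livers by -0.46 ± 0.126 (SE), adjusted p = 0.0283, the one core gene whose groups overlapped, a call lost in 5 of 7 fits without 1 animal. Psmb6, the caspase-like subunit, read 1584, 1433 and 1330 in null DEHP livers and 1770, 1411, 1744 and 1838 in null oil livers, 1781, 1715, 2090 and 1786 in wild-type DEHP livers and 1732, 1596, 1693 and 1664 in wild-type oil livers. It was lower in null DEHP livers than in wild-type DEHP livers by -0.35 ± 0.094 (SE), adjusted p = 0.0269, lost in 3 of 7 fits, and neither DEHP response passed (-0.22 in null and 0.14 in wild-type livers).

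The other beta genes carry no cutting site. Psmb1 read 666, 649.5 and 708 in null DEHP livers and 704, 698, 739.5 and 790.5 in null oil livers, 827, 814, 848 and 949.8 in wild-type DEHP livers and 751, 658, 774 and 669.9 in wild-type oil livers. It rose with DEHP in wild-type livers by 0.27 ± 0.072 (SE), adjusted p = 0.0469, lost in 7 of 8 fits, and was lower in null DEHP than in wild-type DEHP livers by -0.35 ± 0.078 (adjusted p = 0.0083). Psmb3 read 1233, 971 and 1092 in null DEHP livers, against 1460, 1496, 1720 and 1576 in wild-type DEHP livers, -0.51 ± 0.115 (SE), adjusted p = 0.00874, and its second probe set gave -0.543 (adjusted p = 0.000638). Psmb2 read 527, 487 and 513 in null DEHP livers, against 599.8, 559.8, 663 and 638 in wild-type DEHP livers, -0.27 ± 0.072 (SE), adjusted p = 0.0237. Psmb4 read 2135, 2276 and 2168 in null DEHP livers, against 2354, 2498, 2848 and 2529 in wild-type DEHP livers, -0.22 ± 0.067 (SE), adjusted p = 0.0467. The calls of all 4 under DEHP were lost without KO-122.

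**Figure D3:**
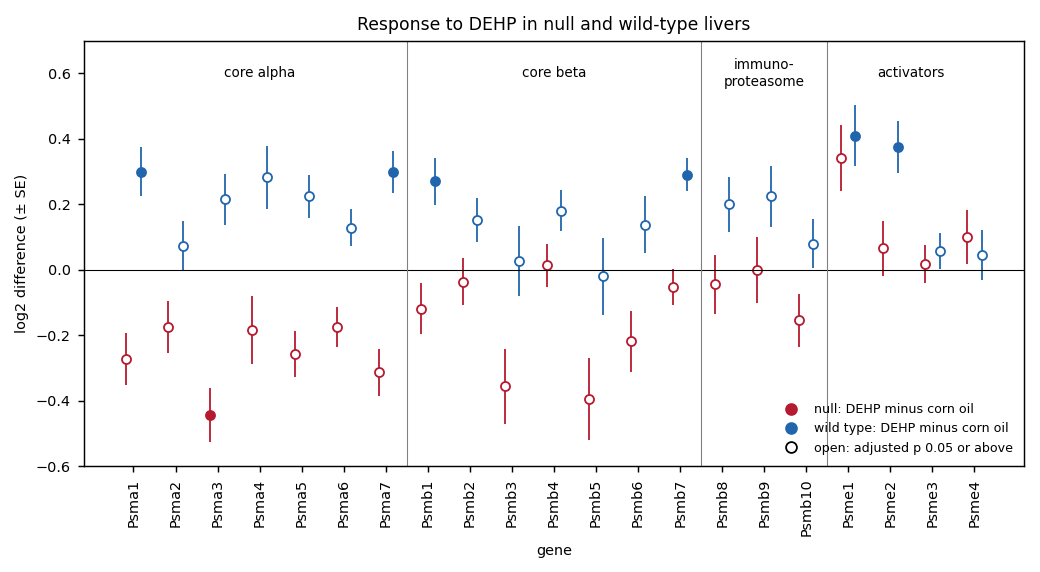
Log2 difference with DEHP in null livers (red, DEHP minus corn oil) and in wild-type livers (blue), with standard errors, for core, immunoproteasome and activator genes. Filled points passed the test: Psma3 in null livers, and Psma1, Psma7, Psmb1, Psmb7, Psme1 and Psme2 in wild-type livers. The red points of all 7 alpha ring genes lie below 0 and the blue ones above it.

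Of the immunoproteasome genes, 0 of 3 passed between null and wild type under DEHP, in either response or in the difference of responses. At an unadjusted p under 0.05 in limma these counts were 0, 0 in null livers, 2 in wild-type livers and 0. Psmb8, which takes the place of Psmb5, read 244, 263 and 241 in null DEHP livers and 288, 221, 273 and 251 in null oil livers, 226, 208, 228 and 246 in wild-type DEHP livers and 185, 209.7, 185 and 212 in wild-type oil livers. Null values were higher than most wild-type ones, and the oil groups did not overlap. It was higher in null oil than in wild-type oil livers by 0.38 ± 0.084 (SE), adjusted p = 0.0342 (1.3-fold), lost in 6 of 8 fits without 1 animal, and by 0.14 ± 0.09 under DEHP, which did not pass (adjusted p = 0.419). Psmb9, which takes the place of Psmb6, read 266, 252 and 232 in null DEHP livers and 278, 249.9, 250.1 and 225 in null oil livers, 267, 230.3, 287 and 299.6 in wild-type DEHP livers and 250.1, 227, 203 and 246 in wild-type oil livers. The groups overlapped in all comparisons, with -0.11 for null against wild type under DEHP (adjusted p = 0.583). Psmb10, which takes the place of Psmb7, read 334, 329 and 344 in null DEHP livers and 369.7, 346, 395 and 385 in null oil livers, 372, 314, 390.4 and 363 in wild-type DEHP livers and 321, 333, 327 and 381 in wild-type oil livers. Its difference under DEHP was -0.10 (adjusted p = 0.551).

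Set against its constitutive partner within each animal, as a difference of centred log2 values with no test, Psmb8 minus Psmb5 was 0.104, 0.919 and 0.387 in null DEHP livers, -0.022 to 0.286 in null oil livers, -0.292 to 0.118 in wild-type DEHP livers and -0.535 to -0.117 in wild-type oil livers. Psmb9 minus Psmb6 was 0.166 to 0.235 in null DEHP livers, -0.292 to 0.243 in null oil livers, -0.156 to 0.164 in wild-type DEHP livers and -0.321 to -0.019 in wild-type oil livers. Psmb10 minus Psmb7 was -0.010 to 0.028 in null DEHP livers, 0.051 to 0.205 in null oil livers, -0.336 to -0.076 in wild-type DEHP livers and -0.047 to 0.274 in wild-type oil livers. For the last 2 pairs every null DEHP liver was above every wild-type DEHP liver, and for Psmb8 and Psmb5 the groups overlapped between 0.104 in KO-121 and 0.118 in WT-59. Psma8, the testis form of an alpha subunit, and Psmb11, the cutting subunit of the thymus cortex, read 43.2 to 61.6 and 20.1 to 29.3 over the 15 livers, outside the 9969 brighter genes, and passed in no comparison.

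**Figure D4:**
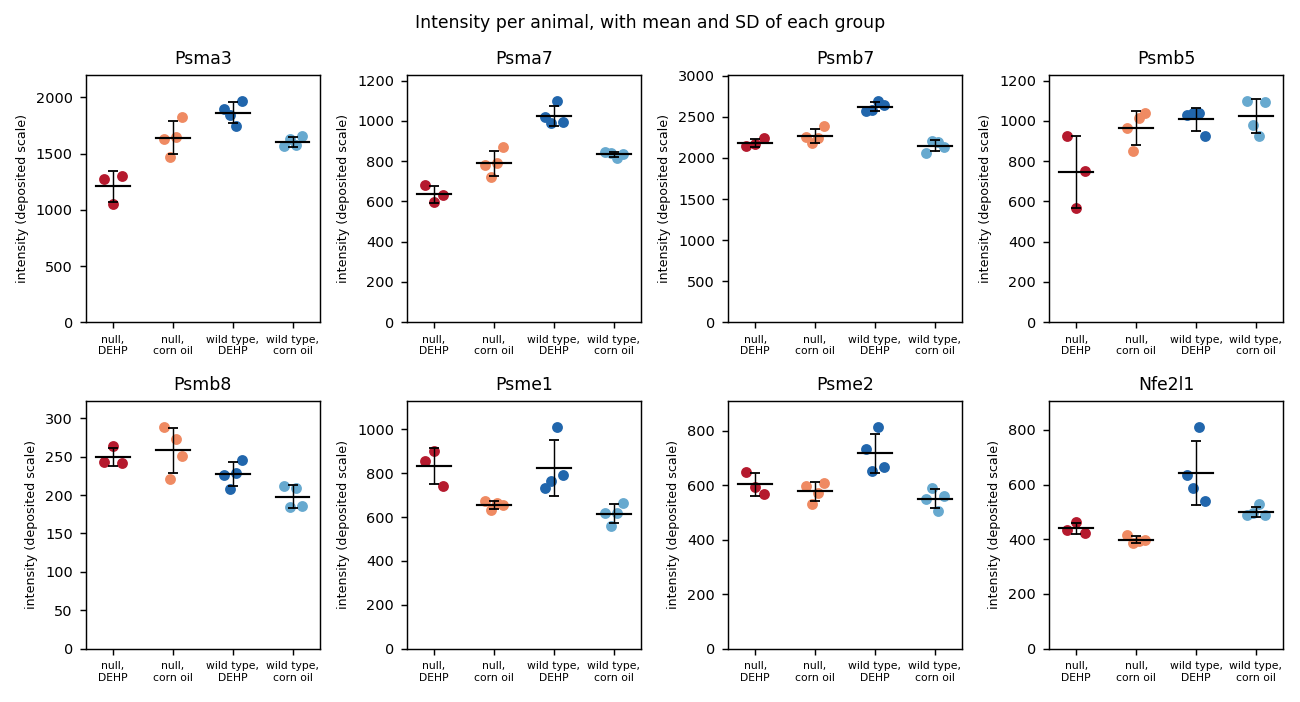
Deposited intensity of 8 genes in each animal (points), with the mean and SD of each group (black), on axes that start at 0. For Psma3 and Psma7 the null DEHP group is lowest and the wild-type DEHP group highest, for Psmb7 the wild-type DEHP group stands above the rest, and for Psme1 both DEHP groups stand above both oil groups.

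In the regulatory particle 3 of 6 base ATPases were lower in null DEHP livers than in wild-type DEHP livers. The median log2 difference was -0.183 over the 6 (range -0.335 to -0.090), beside -0.411 over the 14 core genes. Psmc1 read 573, 532 and 585 in null DEHP livers, against 691, 692, 713 and 743 in wild-type DEHP livers (-0.34 ± 0.076 (SE), adjusted p = 0.00965), though its second probe set, at -0.250, did not pass (adjusted p = 0.0589). Psmc6 read 632, 649 and 701 in null DEHP livers, against 829.7, 875, 833 and 784 in wild-type DEHP livers (-0.33 ± 0.079 (SE), adjusted p = 0.0128). Psmc3 read 867, 826 and 812 in null DEHP livers, against 919.5, 1006, 1013 and 923 in wild-type DEHP livers (-0.21 ± 0.064 (SE), adjusted p = 0.0487). These groups did not overlap, but the 3 calls were lost without KO-122, and that of Psmc3 in all 7 fits without 1 animal. Psmc2, Psmc4 and Psmc5 differed by -0.14, -0.16 and -0.090, and no base ATPase passed in another comparison.

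Of the base scaffold and receptor genes, Psmd4, a receptor for ubiquitin chains, was lower in null DEHP livers. It read 549.8, 523 and 504 in null DEHP livers and 569.5, 504, 592 and 604 in null oil livers, 647, 673, 752 and 719.9 in wild-type DEHP livers and 659, 603, 601 and 604 in wild-type oil livers. The difference under DEHP was -0.41 ± 0.075 (SE), adjusted p = 0.00246 (0.754-fold), held in all 7 fits without 1 animal. The large scaffold genes gave 0.035 for Psmd1 (adjusted p = 0.87) and -0.19 for Psmd2 (adjusted p = 0.0991).

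In the lid 4 of 8 genes were lower in null DEHP livers than in wild-type DEHP livers (median of the 8 -0.223, range -0.602 to 0.154). Psmd14, the subunit that cuts ubiquitin chains off the substrate, read 577, 499.5 and 569.9 in null DEHP livers and 733, 513, 652 and 677 in null oil livers, 737, 807, 852 and 942 in wild-type DEHP livers and 779, 656, 693 and 688 in wild-type oil livers. KO-116 (513) lay as low as the null DEHP livers. The difference under DEHP was -0.60 ± 0.112 (SE), adjusted p = 0.00255 (0.659-fold). Psmd7, with which Psmd14 pairs, read 523, 528 and 550.1 in null DEHP livers and 539, 506, 538 and 550.1 in null oil livers, 641, 624, 606 and 618 in wild-type DEHP livers and 552, 509.8, 544 and 517 in wild-type oil livers. The 4 wild-type DEHP livers were above the 11 others, and Psmd7 rose with DEHP in wild-type livers by 0.23 ± 0.052 (SE), adjusted p = 0.0213, lost in 3 of 8 fits, with 0.001 ± 0.056 in null livers and -0.22 ± 0.056 (SE), adjusted p = 0.0189 for null against wild type under DEHP, lost in 3 of 7 fits.

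Psmd6, a scaffold subunit of the lid, read 584, 521 and 574 in null DEHP livers and 703, 614, 771 and 775 in null oil livers, 744, 756, 734 and 875 in wild-type DEHP livers and 736, 695, 723 and 714 in wild-type oil livers. Its difference under DEHP was -0.47 ± 0.086 (SE), adjusted p = 0.00215, held in all 7 fits, and the null response of -0.35 ± 0.086 did not pass (adjusted p = 0.0768). Psmd12 read 530.0, 573 and 591 in null DEHP livers, against 651, 728, 693 and 643 in wild-type DEHP livers (-0.27 ± 0.08 (SE), adjusted p = 0.0461), lost in all 7 fits. Psmd11, another scaffold subunit of the lid, ran the other way without passing: it read 1653, 1942 and 1722 in null DEHP livers and 1398, 1351, 1339 and 1482 in null oil livers, 1455, 1648, 1701 and 1562 in wild-type DEHP livers and 1335, 1482, 1388 and 1299 in wild-type oil livers. The null DEHP values were above all null oil values (0.35 ± 0.076, adjusted p = 0.0582), and null minus wild type under DEHP was 0.15 (adjusted p = 0.24). Psmd3, Psmd8 and Psmd13 differed under DEHP by -0.17, -0.13 and -0.23, none past the threshold.

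Of the 4 activators 2 rose with DEHP in wild-type livers, and 0 passed between null and wild type under DEHP (1 at an unadjusted p under 0.05, limma). Psme1, the alpha chain of the interferon-inducible activator, read 858, 902 and 741 in null DEHP livers and 675, 633, 662 and 653 in null oil livers, 732, 762, 1009 and 789.9 in wild-type DEHP livers and 666, 620.0, 559.5 and 618 in wild-type oil livers. Both DEHP groups were above both oil groups in all animals. The rise with DEHP was 0.41 ± 0.093 (SE), adjusted p = 0.0213 in wild-type livers (1.33-fold, lost in 3 of 8 fits), and the difference in null livers, 0.34 ± 0.101, did not pass (adjusted p = 0.14). The responses differed by -0.068 ± 0.137 (adjusted p = 0.885), and null minus wild type under DEHP was 0.024 ± 0.101 (adjusted p = 0.929).

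Psme2, the beta chain, read 651, 596 and 567 in null DEHP livers and 599, 532, 573 and 608 in null oil livers, 735, 653, 813 and 668 in wild-type DEHP livers and 561, 504, 590.2 and 552 in wild-type oil livers. It rose with DEHP in wild-type livers by 0.38 ± 0.079 (SE), adjusted p = 0.013 (1.3-fold), lost in 1 of 8 fits, that without WT-53. In null livers it differed by 0.065 ± 0.085 (adjusted p = 0.835), and null minus wild type under DEHP was -0.24 ± 0.085 (adjusted p = 0.0836), with no overlap between the groups. A further probe set that is assigned to both Psme2 and Psme2b was not used. Psme3, the nuclear activator, and Psme4, the large single-chain activator, passed in no comparison (0.011 and 0.16 under DEHP).

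**Figure D5:**
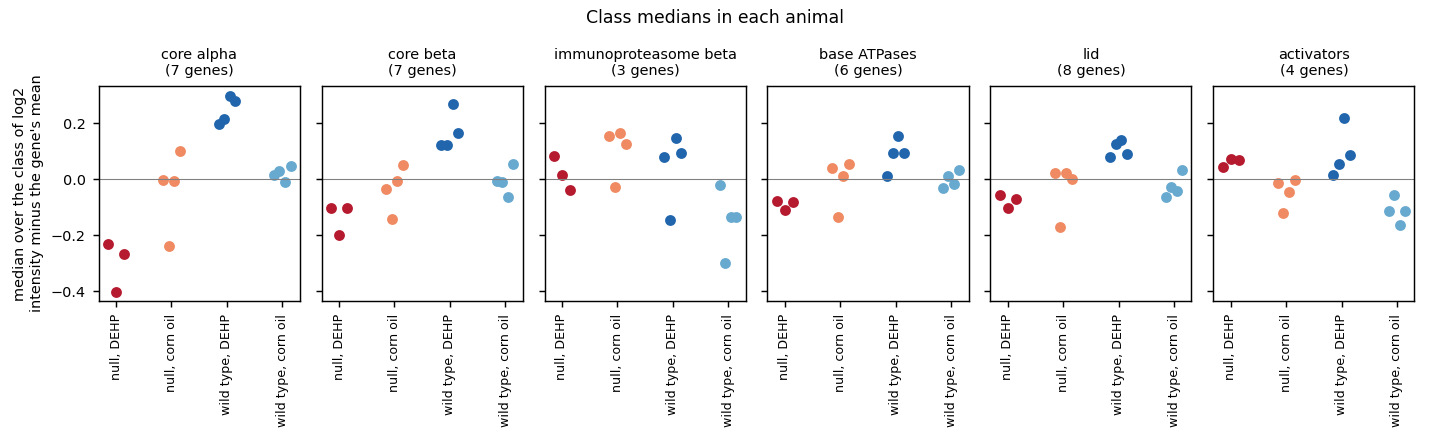
Median over the genes of each class of the centred log2 intensity, 1 point per animal. For the alpha ring the null DEHP livers lie at -0.401 to -0.231 and the wild-type DEHP livers at 0.196 to 0.299, for the activators both DEHP groups lie above 0 (0.043 to 0.071 and 0.014 to 0.219), and for the immunoproteasome the groups overlap.

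Over the classes, the class median of the alpha ring per animal was -0.401 to -0.231 in null DEHP livers, -0.238 to 0.101 in null oil livers, 0.196 to 0.299 in wild-type DEHP livers and -0.011 to 0.046 in wild-type oil livers. For the activators it was 0.043 to 0.071 in null DEHP livers, -0.120 to -0.003 in null oil livers, 0.014 to 0.219 in wild-type DEHP livers and -0.165 to -0.057 in wild-type oil livers. The wild-type DEHP group had the highest mean for all 7 alpha genes, 6 of 7 beta genes, 6 of 6 base ATPases and 7 of 8 lid genes. The null DEHP group had the lowest mean for 7 alpha genes, 5 beta genes, 6 base ATPases and 5 lid genes. Of the 4 activators, 3 had their highest mean in null DEHP livers and all 4 their lowest in wild-type oil livers. Neighbouring groups in these orders were tested only where a comparison above names them.

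Of the assembly chaperones 4 of 7 were lower in null DEHP than in wild-type DEHP livers (median -0.304, range -0.412 to 0.003). Psmd5, a chaperone of the base, read 399.7, 412 and 429.7 in null DEHP livers and 424, 391, 349 and 452 in null oil livers, 486, 505, 545 and 508 in wild-type DEHP livers and 404, 381, 419.9 and 398 in wild-type oil livers. It rose with DEHP in wild-type livers by 0.35 ± 0.074 (SE), adjusted p = 0.013 (1.28-fold), lost in 1 of 8 fits, that without WT-53, and was lower in null DEHP livers than in wild-type DEHP livers by -0.30 ± 0.079 (adjusted p = 0.0218). Psmd10, also known as gankyrin and likewise a base chaperone, read 241, 202 and 228 in null DEHP livers, against 288, 255, 265 and 308 in wild-type DEHP livers (-0.32 ± 0.086 (SE), adjusted p = 0.0258). Psmg2 and Psmg3, which help build the alpha ring, were lower as well. Psmg2 read 168, 173 and 189 in null DEHP livers and 207, 164, 184 and 225 in null oil livers, 235, 234, 205 and 269 in wild-type DEHP livers and 232, 234, 226 and 267 in wild-type oil livers, with -0.41 ± 0.107 (SE), adjusted p = 0.0208 under DEHP. Psmg2 also did not overlap between the oil groups, at -0.30 ± 0.099, which did not pass (adjusted p = 0.182). Psmg3 read 144, 119 and 125 in null DEHP livers, against 186, 157, 157 and 184 in wild-type DEHP livers (-0.40 ± 0.104 (SE), adjusted p = 0.0206). These 4 calls were lost without KO-122. Psmd9, Psmg1 and Psmg4 differed under DEHP by 0.003, -0.17 and -0.28, none past the threshold. The 2 genes that share only the symbol, Psmc3ip (a factor of meiotic recombination) and Psme3ip1 (a partner of Psme3), passed in no comparison, and without them the median under DEHP was -0.265 over 47 genes.

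Partners of the proteasome outside the symbol rule were read as a list of 29 genes, of which 22 were measured. Under DEHP 6 of 22 were lower in null livers and 0 higher (median -0.119), beside 5.61% lower over all genes. The separate fit of the 9969 brighter genes called 13.6% lower, but this list was counted only in the fit of all genes. Sem1, a small lid subunit whose symbol falls outside the rule, read 683, 595 and 635 in null DEHP livers and 746, 701, 750.4 and 872 in null oil livers, 1029, 934, 868 and 1013 in wild-type DEHP livers and 786, 714, 804 and 749.8 in wild-type oil livers. It was lower in null DEHP livers by -0.59 ± 0.084 (SE), adjusted p = 0.000356, rose with DEHP in wild-type livers by 0.33 ± 0.078 (SE), adjusted p = 0.0264, lost in 4 of 8 fits, and differed between the responses by -0.59 ± 0.115 (SE), adjusted p = 0.0234, lost in 4 of 15. Nfe2l1, the transcription factor known to raise proteasome genes when proteasome activity is short, read 436, 462 and 422 in null DEHP livers and 417, 385, 395 and 397 in null oil livers, 636, 589, 809.5 and 539 in wild-type DEHP livers and 488, 528, 494 and 489 in wild-type oil livers. It was lower in null DEHP livers by -0.53 ± 0.101 (SE), adjusted p = 0.00304, held in all 7 fits. Its difference with DEHP in wild-type livers, 0.35 ± 0.094, missed the threshold (adjusted p = 0.051), the oil livers differed by -0.33 ± 0.094 (adjusted p = 0.12), and the responses by -0.21 ± 0.138 (adjusted p = 0.574). The related factor Nfe2l2 differed under DEHP by -0.14 (adjusted p = 0.371).

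Ngly1, the enzyme that strips sugars from Nfe2l1, was lower in null DEHP livers by -0.33 ± 0.084 (adjusted p = 0.0199). Uchl5, a deubiquitinase bound to the proteasome, was lower by -0.39 ± 0.092, Txnl1, a thioredoxin-like protein of the regulatory particle, by -0.38 ± 0.062, and Ubqln2, a shuttle for ubiquitinated proteins, by -0.37 ± 0.077. Without KO-122 the calls of Ngly1 and Uchl5 were lost. With DEHP in wild-type livers 5 of 22 rose in the fit of all genes, beside 2.29% higher over all genes. The separate fit of the 9969 brighter genes called 5.99% higher. Pomp, the maturation chaperone of the core, read 1493, 1480, 1798 and 1661 in wild-type DEHP livers, against 1306, 1168, 1296 and 1119 in wild-type oil livers (0.39 ± 0.084 (SE), adjusted p = 0.0141, lost in 2 of 8 fits), and Txnl1, Ubqln2 and Usp14, another proteasome-bound deubiquitinase, rose by 0.29, 0.28 and 0.28. The Txnl1 call held in all 8 fits without 1 animal, while that of Ubqln2 was lost in 7 and that of Usp14 in 6. In null livers 0 of 22 passed, with 7 at an unadjusted p under 0.05 (limma), and 0 passed between the oil groups, with 2 at that level.

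Genes of ubiquitin supply and transfer, 14 measured of 21 listed, had 2 called higher in null DEHP than in wild-type DEHP livers. Called lower were 0. Over all genes 5.09% were called higher. The separate fit of the 9969 brighter genes called 14.2% higher, but this list was counted only in the fit of all genes. The 2 genes were Usp7, a deubiquitinase, at 0.26 ± 0.069, and Ube2d3, a ubiquitin-conjugating enzyme, at 0.26 ± 0.067. Both calls were lost in 4 of 7 fits, that without KO-122 among them (adjusted p = 0.118 and 0.117). The median of the 14 was 0.041, and 0 of 14 passed with DEHP within a genotype, with 3 in null and 1 in wild-type livers at an unadjusted p under 0.05 (limma). Of 15 measured genes of class I antigen presentation and its interferon regulators (20 listed), 3 were higher in null DEHP livers and 1 lower. Over all genes these shares were 5.09% and 5.61%. The separate fit of the brighter genes, in which this list was not counted either, called 14.2% higher and 13.6% lower. B2m, the light chain of class I molecules, was higher by 0.33 ± 0.06 (SE), adjusted p = 0.0021, Stat2, a transducer of interferon signals, by 0.37 ± 0.086, and Canx, a folding chaperone, by 0.26 ± 0.067. Ifngr2, a chain of the interferon gamma receptor, was lower by -0.33 ± 0.091. The B2m call held in all 7 fits without 1 animal, those of Stat2 and Canx were lost without KO-122 (1 and 3 of 7 fits), and that of Ifngr2 was lost in 4 of 7. With DEHP in wild-type livers Tapbp, which loads peptides onto class I molecules, rose by 0.27 ± 0.073 (SE), adjusted p = 0.0478, lost in all 8 fits. In the other comparisons 0 genes of these last 2 lists passed, with 0 to 7 of each list at an unadjusted p under 0.05 (limma).

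Some markers of other liver cells were also called between null DEHP and wild-type DEHP livers. Over all genes 5.09% were called higher. The separate fit of the 9969 brighter genes called 14.2% higher, but the markers were counted only in the fit of all genes. Of 4 endothelial markers 3 were higher in null DEHP than in wild-type DEHP livers (Stab2 0.49 ± 0.062, Kdr 0.49 ± 0.089, Pecam1 0.28 ± 0.085, the last lost in all 7 fits without 1 animal), with summed intensities of 2023 to 2277 in null DEHP livers, 1774 to 1971 in null oil livers, 1581 to 1785 in wild-type DEHP livers and 1792 to 2005 in wild-type oil livers. Of 4 stellate markers Reln (0.65 ± 0.105) and Dcn (0.44 ± 0.127, lost in 5 of 7 fits) were higher, with sums of 2162 to 2778 in null DEHP, 2234 to 3262 in null oil, 1767 to 1903 in wild-type DEHP and 1785 to 2104 in wild-type oil livers. Of 7 measured of 8 Kupffer cell markers Csf1r was higher (0.44 ± 0.112, lost in 2 of 7 fits), with sums of 2112 to 2488 in null DEHP, 1899 to 2475 in null oil, 1489 to 2295 in wild-type DEHP and 1666 to 1944 in wild-type oil livers. All 4 stellate and all 7 Kupffer cell markers were positive under DEHP (medians 0.522 and 0.353). They were also all positive between null oil and wild-type oil livers (medians 0.488 and 0.254), with 0 called and 4 of each list at an unadjusted p under 0.05 (limma). Of 4 neutrophil markers Ly6g was higher (0.30 ± 0.083, lost in 4 of 7 fits), with sums of 132 to 179 in null DEHP, 102 to 179 in null oil, 155 to 203 in wild-type DEHP and 89.4 to 112 in wild-type oil livers. The 3 remaining neutrophil markers had negative differences, down to -0.508, and the median of the 4 was -0.052.

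With DEHP in wild-type livers S100a8 of neutrophils rose by 1.78 ± 0.244, and Stab2, Reln and the hepatocyte gene Cps1 fell, at -0.34 ± 0.057, -0.50 ± 0.097 and -0.34 ± 0.075 (the last lost in 5 of 8 fits). Their lists were mixed in sign. Neutrophil markers were 2 positive and 2 negative (median 0.049), and stellate markers 2 and 2 (median -0.037). Endothelial markers were 1 positive and 3 negative (median -0.19), and hepatocyte markers 1, at 0.291, and 4 (median -0.062). The Stab2 responses also differed, by 0.43 ± 0.084, lost in 7 of 15 fits. No marker of B cells (3 measured of 4, sums of 73.9 to 85.4 in null DEHP, 79.2 to 102 in null oil, 64.9 to 121.7 in wild-type DEHP and 70.9 to 86.3 in wild-type oil livers) or of T and NK cells (6 of 6, sums of 160 to 192 in null DEHP, 178 to 205 in null oil, 163 to 205 in wild-type DEHP and 183 to 189 in wild-type oil livers) passed in any comparison, with 0 at an unadjusted p under 0.05 (limma). Of dendritic cells 5 of 5 markers were measured, with sums of 843 to 1503 in null DEHP, 1519 to 1825 in null oil, 696 to 1497 in wild-type DEHP and 1123 to 1333 in wild-type oil livers, and 0 passed in limma (1 under DEHP, 1 under oil and 1 with DEHP in null livers at an unadjusted p under 0.05). No marker read 0. The part of these cell types in the differences of proteasome genes was not tested.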

How the data were processed

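Liver RNA of 15 mice was hybridised to Affymetrix arrays, 1 array per animal. The intensity values are those the authors deposited, per the labels' protocols after mirVana extraction and amplification with the Affymetrix WT kit; they are linear and on a common scale, with a normalization not given in the sources used here. No batch, slide or scan date is labelled, so none could be fitted as a block. Log2 was taken of each value with nothing added. The platform annotation gave 1 symbol for 21789 of 35494 probe sets, several for 1621 and none for 12084. Where a gene had more than 1 (999 genes), its brightest probe set by mean log2 was used, which gave 19938 genes, all tested without a filter.

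limma 3.58.1 in R 4.3.3 fitted 1 mean per group to all 15 arrays (residual degrees of freedom 11, prior 4.68), with Benjamini-Hochberg adjustment over all genes of a contrast and a threshold of 0.05. Standard errors are moderated. Precision is limited by 3 or 4 animals per group. The contrasts were null against wild type under DEHP and under oil, DEHP against oil in each genotype, and the difference of these responses, planned as wild type minus null and printed as null minus wild type. Named were all genes of the symbol rule, per-animal values being given for those called in any contrast, the cutting subunits, Psme1 and Psme2, and called genes of the fixed lists, up to 6 a list and contrast, together with Ppara and cell type markers. Psmd11, Cyp4a14 and Nfe2l2 were added after their values were seen. The genes, classes, lists and markers were chosen with earlier results of these data known. Alternatives were the arrays in the fit, quantile or median scaling, only the 9969 brighter genes, 16 added before log2, a trended robust prior, the mean of a gene's probe sets, and leaving out each animal. The method was tested on simulated data. Promoter sequences are from RefSeq, build GRCm38.p6.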

Additional observations from a re-analysis of the deposited data

Results flagged for a closer look

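For 5 genes the responses to DEHP differed between null and wild-type livers by the interaction term of the limma fit (null response minus wild-type response, log2): Psma3 at -0.659, Psma7 at -0.613, Psma1 at -0.572, Psma5 at -0.482 and Psmb7 at -0.343. In all 5 the null response was the lower one.

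A single animal stood apart from the 3 others of its group, by Dixon's gap test, in 12 of 147 groups of 4 animals, where chance gives about 5%. KO-116, a null oil liver, was low for 3 genes: Psmc4 (log2 intensity 8.75, the others 8.94 to 8.98), Psmd2 (10.58, against 10.74 to 10.77) and Psmd13 (8.81, against 9.05 to 9.08). Another null oil liver, KO-115, was low for Psmc3ip (4.79). Among wild-type DEHP livers WT-56 was low for Psmc5 (9.81) and Psme4 (9.30), and WT-59 for Psmb5 (9.85, against 10.01 to 10.02). Among wild-type oil livers WT-55 was low for Psma6 (10.96) and Psmc3 (9.76) and high for Psmd1 (10.27), and WT-52 was high for Psmb2 (9.19) and Psmd4 (9.37). In the wild-type oil groups of Psma6, Psmc3 and Psmd1 the 3 other values were nearly identical, so that a small gap sufficed. The 3 other values also lay close together for Psmb2 (9.08 to 9.1) and Psmd4 (9.23 to 9.24) in wild-type oil livers. The same held in wild-type DEHP livers for Psmb5, Psmc5 (9.96 to 9.98) and Psme4 (9.49 to 9.5).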

How the results depend on the processing

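Of 245 differences (49 genes in 5 comparisons) 41 were called. Of these, 27 kept their sign and their call in all 7 alternatives other than leaving out 1 animal, and 0 reversed. Of the 41, 14 kept the call without any 1 animal of their comparison. Among uncalled differences 16 changed sign in some alternative. For null against wild type under DEHP, the fit on these groups alone called 1331 genes instead of 2133, and 18 proteasome genes instead of 26. Median scaling moved the median of the 49 genes to -0.296 with all genes at -0.028. Between oil groups the 1 proteasome call became 0 in the fit on these groups alone and under median scaling. For DEHP in null livers the counts of all genes (94) and of proteasome genes (1) became 1 and 0 with these groups alone, 32 and 0 under median scaling, 427 and 5 among the 9969 brighter genes, 287 and 4 with 16 added before log2, and 293 and 4 with the trended robust prior, and quantile normalization called 3 proteasome genes. For the difference of responses the last 3 of these settings called 570, 418 and 424 genes instead of 179, and 8 proteasome genes each instead of 5. The fits on fewer arrays have fewer residual degrees of freedom; the cause of the other shifts was not tested.

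Over the fits without 1 animal, genes called ran from 1019 to 2259 for null against wild type under DEHP, 159 to 287 under oil, 9 to 168 for DEHP in null livers, 433 to 812 in wild-type livers and 61 to 299 for the difference of responses. Proteasome genes called ran from 11 to 25, 0 to 1, 0 to 5, 1 to 8 and 2 to 8 in the same order, and their medians from -0.273 to -0.234, -0.033 to 0.044, -0.142 to -0.068, 0.119 to 0.143 and -0.277 to -0.214. No paired analysis was possible because the groups share no animal number. Signal over background could not be weighed, since the files hold no background values; Psma8, Psmb11 and Psmc3ip, the 3 genes outside the 9969 brighter ones, are the least certain.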
